A study of Mus musculus with 15 samples.

Results

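Aggregates of primary mouse hepatocytes were compared with monolayers of the same cell type after 4 h in culture. The comparison rests on 6 of the 15 arrays of the series, 3 of cells kept in a rotating wall vessel (RWV), where hepatocytes come together into aggregates, and 3 of cells in a dish for tissue culture (TCD), on which they attach and spread as a monolayer. All hepatocytes were isolated from male C57BL/6 mice, and each array held an independent biological replicate. The labels name no genetic change and no added agent, and give no age. The other groups were freshly isolated cells (t0) and both vessels at 24 h, with 3 arrays each. Every value is a log2 change from the median of the 3 fresh arrays, so a value of 0 is the fresh level and the level itself was not kept. Of 18193 genes with probe sets of 1 symbol, 12423 lay off the background and were tested. A gene was called at an adjusted p below 0.05 from limma with Benjamini-Hochberg adjustment over all genes tested. The fit took its estimate of spread from all 15 arrays, and far fewer genes were called from the 6 arrays alone (109 against 766). Errors after ± are standard errors of that fit, and n = 3 per group throughout.

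Hepatocytes are the main metabolic cells of the liver, and isolation strips them of their neighbours and matrix. Cells that attach and spread on a dish lose much of their liver programme over days, while aggregates keep cell contacts on all sides. Among the first genes to respond to a change of surroundings are those governed by glucose, by oxygen through the hypoxia-inducible factors (HIF), by amino acid supply through the integrated stress response, and by growth signals through the immediate early genes. Transcripts with a short lifetime follow such changes soonest, because their level depends on continued transcription.

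At 4 h, 683 genes were higher in RWV (5.50% of the genes tested) and 83 were lower (0.668%), together 6.17%. Of these 413 and 45 differed at least 2-fold. An unadjusted p below 0.05 was reached by 2501 of the 12423 genes tested. The 20 hepatocyte markers tested had a median difference of 0.000518, and limma called 0 of them in either direction, with 1 at an unadjusted p below 0.05; with the replicate number as a block 1, Apob, was lower. The genes with the largest rises were Fgf21, which encodes a hormone that the liver secretes under metabolic stress, and Txnip, which restrains glucose uptake. The largest falls were in Ackr3, an atypical chemokine receptor that takes up Cxcl12, in the hexokinase Hk2, in the coagulation starter F3 (tissue factor) and in Vim, the intermediate filament gene vimentin.

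**Figure D1:**
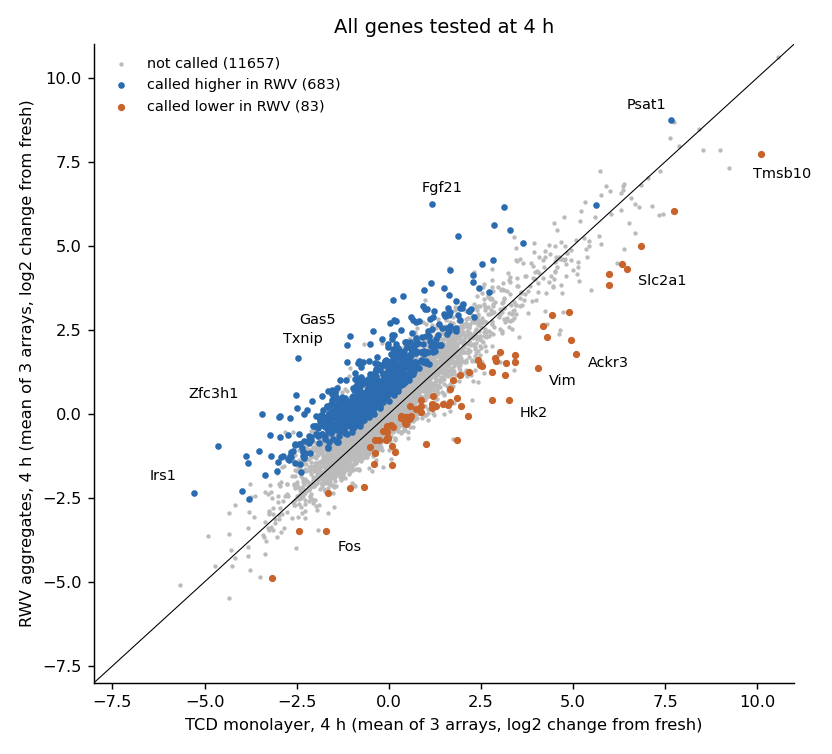
Mean of the 3 TCD arrays (horizontal) against the mean of the 3 RWV arrays (vertical) at 4 h for the 12423 genes tested, both as log2 change from fresh cells, with the line of equal values. The 683 genes called higher in RWV lie above the line, many of them left of 0 on the TCD axis, and the 83 called lower lie below it, most of them right of 0.

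The genes called higher were on the median below the fresh level in TCD (-0.473) and above it in RWV (0.658). Those called lower were above the fresh level in TCD (1.17) and nearer to it in RWV (0.231). Over all genes tested the medians were -0.0232 and -0.0541. TCD replicate 2 stood apart, with a median of 1.08 over 18 probe sets for spiked hybridisation controls, where the other 14 arrays ran from -0.732 to 0.181. Fitted array weights gave it 0.171. It held the lowest TCD value in 495 of the 683 genes called higher (72.5%), against 47.7% of all genes tested. Without it 420 genes were higher (3.38%) and 86 lower (0.692%), and 392 of the 683 and 53 of the 83 were called again. The number of calls rested on every RWV array too: without RWV replicate 1, 2 or 3 the totals were 497, 458 and 390 against 766. With each array centred on reference genes, which moved the median of all genes from -0.0109 to -0.139, 415 genes were higher and 115 lower, so that 78.3% of the calls were rises in place of 89.2%.

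Where a gene had several probe sets, the one with the largest spread over all 15 arrays was used. Of the 376 genes called higher with more than 1 probe set off the background, 54 had every such probe set called higher and 272 had at most 1. The 675 other probe sets of these genes had a median difference of 0.258, and 484 were above 0. Of the 50 genes called lower with several, 11 had every one called, and 82 of the 85 other probe sets lay below 0, with a median of -0.469. No gene had a probe set called the opposite way.

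Genes that answer to glucose gave the largest single differences. The list of glucose sensing and carbohydrate response genes had 22 members tested, of which 3 were higher in RWV (against 5.50% of all genes tested), 0 lower and 19 not called, and their median difference was 0.302. Fgf21 stood at 6.01, 7.84 and 4.87 in the 3 RWV arrays and at 1.34, 1.68 and 0.53 in the 3 TCD arrays. Every RWV value lay well above every TCD value, and the difference was 5.06 ± 0.611 log2 units (33.3-fold, adjusted p = 0.00102, and 0.00278 without TCD replicate 2). Txnip stood at 0.27, 2.91 and 1.82 in RWV and at -3.04, -3.01 and -1.37 in TCD. Its transcript was thus below the fresh median in all TCD arrays and above it in all RWV arrays. The difference was 4.14 ± 0.753 (adjusted p = 0.00842, and 0.0320 without TCD replicate 2). The fresh arrays of Txnip ran from -1.25 to 1.45, a range that holds its RWV replicate 1 value. Against fresh cells limma called Txnip lower in TCD (adjusted p = 0.0266) and did not call it in RWV (adjusted p = 0.138). Klf10, a transcriptional repressor induced by glucose and by TGF-beta, was the other called member, at 3.02, 3.98 and 3.59 in RWV and 1.5, 1.77 and 1.66 in TCD. Its groups did not overlap, and its difference of 1.89 ± 0.42 (adjusted p = 0.0217) was not called without TCD replicate 2, RWV replicate 2 or RWV replicate 3 (adjusted p between 0.0523 and 0.0804). When the 6 compared arrays were fitted alone, 0 of the 22 members were called, so Fgf21 and Txnip lost their calls there too.

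The promoter of Txnip is shown because it carries the pair of E-box-like elements through which the carbohydrate response factor ChREBP and its partner Mlx bind. The pattern searched, on both strands, was CACGNG, 5 bases and CACGNG again. In RefSeq promoter windows of 300 bases (250 before to 50 after a start site, GRCm38.p6) it was found in 16 of 32851 windows, or 0.0487%. Among the 19 members of the glucose list with a window, 1 held it, namely Txnip, 85 bases before the start site at chr3:96557852-96557911 on the plus strand, and the window of Fgf21 held no match. The capitals mark the pattern.
Txnip: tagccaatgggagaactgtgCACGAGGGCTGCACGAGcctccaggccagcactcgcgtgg
A match describes these letters and shows no binding.

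Some enzymes that turn glucose into fat and reducing power were higher as well. Of 30 fatty acid synthesis genes 3 were higher (10%, against 5.50% of all genes) and 0 lower, with a median of 0.0758, which fell below 0 (-0.052) with arrays centred on reference genes. Acly, which makes cytosolic acetyl-CoA, stood at 1.08, 2.37 and 2.0 in RWV and -0.04, 0.50 and 0.04 in TCD, a difference of 1.65 ± 0.287 (adjusted p = 0.00683). Fasn, the fatty acid synthase, stood at 1.19, 2.62 and 2.16 against -0.66, 0.79 and -0.21. The lowest RWV value of Fasn lay only slightly above the highest TCD value, and its difference of 2.02 ± 0.505 (adjusted p = 0.0365) was not called when TCD replicate 1 or 3 or RWV replicate 2 or 3 was left out (adjusted p between 0.0723 and 0.123), nor with reference centring (adjusted p = 0.0555). Mid1ip1, a partner of acetyl-CoA carboxylase, differed by 1.73 ± 0.382 (adjusted p = 0.0207), and lost its call without TCD replicate 1 or 2 or RWV replicate 2 or 3 (adjusted p between 0.0514 and 0.0768). Among 38 genes of the NRF2 and pentose phosphate list 2 were higher and 0 lower, a share of 5.26% that is close to the 5.50% of all genes. Pgd, the pentose phosphate dehydrogenase that yields NADPH, stood at 1.8, 2.23 and 1.94 in RWV and 0.90, -0.17 and 0.71 in TCD, and all 4 of its probe sets were called higher (1.51 ± 0.223, adjusted p = 0.00289). Cbr3, a carbonyl reductase, differed by 2.61 ± 0.539 (adjusted p = 0.0154), and was not called without RWV replicate 1 or 3 (adjusted p = 0.0522 and 0.0672). Of the 20 cholesterol synthesis genes limma called 0, and 0 had an unadjusted p below 0.05. Without TCD replicate 1, RWV replicate 2 or RWV replicate 3 the fatty acid count was 1, and without RWV replicate 1 or 3 the NRF2 count was 1.

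Some glycolysis and hypoxia genes were lower in RWV, and most members of both lists were not called. Of 30 glycolysis and lactate genes 5 were lower in RWV (16.7%, against 0.668% of all genes tested), 0 were higher and 25 were not called, with a median of -0.333, and 23 of the 30 differences lay below 0 (76.7%, against 51.5% of all genes). Slc2a1, the glucose transporter GLUT1 of most growing cells, had risen in both vessels, to 6.35, 6.54 and 6.45 in TCD and 3.93, 4.33 and 4.69 in RWV. The TCD values sat close together and all lay above the RWV values (-2.13 ± 0.385, 4.38-fold, adjusted p = 0.00815), and all 3 of its probe sets were called lower. Pkm, the pyruvate kinase gene whose M2 form marks dividing and fetal cells, stood at 6.22, 5.42 and 6.25 in TCD and 3.70, 3.68 and 4.09 in RWV (-2.14 ± 0.297, adjusted p = 0.00213). Hk2, the hexokinase of muscle and growing cells, stood at 2.67, 2.42 and 4.65 in TCD and at -0.01, 0.07 and 1.15 in RWV. In aggregates Hk2 thus lay near the fresh level in 2 of 3 arrays, and the difference was -2.85 ± 0.679 (adjusted p = 0.0294). It was not called without TCD replicate 3 or RWV replicate 1 or 2 (adjusted p between 0.0661 and 0.0979). The housekeeping steps moved less. Pgam1, phosphoglycerate mutase, differed by -0.38 ± 0.0901 (adjusted p = 0.0276), and was not called without TCD replicate 1 or RWV replicate 1 or 2 (adjusted p between 0.0569 and 0.0944). Pgk1, phosphoglycerate kinase, differed by -0.34 ± 0.0888 (adjusted p = 0.0427, 0.0628 with the replicate block), and was called in only 1 of the 6 fits that left out an array, with adjusted p between 0.0705 and 0.134 in the others.

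Outside glycolysis, 5 of 33 HIF pathway genes were lower (15.2%), 0 were higher and 28 were not called, with a median of -0.371, and 15 of the 33 had all 3 RWV values below all 3 TCD values (45.5%, against 18.7% of all genes). Ero1a, the oxidase that forms disulphide bonds in the endoplasmic reticulum, stood at 4.80, 4.49 and 5.38 in TCD and 2.68, 2.71 and 3.69 in RWV (-1.87 ± 0.33, adjusted p = 0.00742). Fam162a, a mitochondrial protein induced by hypoxia, gave the tightest groups, 1.17, 1.16 and 1.29 against 0.53, 0.52 and 0.51, and a difference of -0.69 ± 0.1 (adjusted p = 0.00271), or -1.08 on the mean of its 2 probe sets. Egln3, an oxygen-sensing prolyl hydroxylase that is itself a HIF target, stood at 4.47, 4.12 and 4.67 in TCD and 2.96, 2.70 and 3.12 in RWV. Its difference of -1.5 ± 0.351 (adjusted p = 0.0275) was called without TCD replicate 2 and in no other fit that left out an array (adjusted p between 0.0553 and 0.0901). Vegfa, the endothelial growth factor, stood at 2.17, 2.09 and 2.29 in TCD and 1.31, 1.31 and 1.10 in RWV, and Higd1a, a mitochondrial survival factor, at 1.88, 1.51 and 1.45 against 0.42, 0.59 and -0.26. Both separated the vessels without overlap, at -0.94 ± 0.232 (adjusted p = 0.0335) and -1.37 ± 0.342 (adjusted p = 0.0366). Vegfa lost its call whichever array was left out (adjusted p between 0.0606 and 0.12), and Higd1a lost it for all but TCD replicate 3 (adjusted p between 0.0540 and 0.145). The size of a difference did not settle its call: Adm, the vasodilator adrenomedullin, stood at 9.24, 9.31 and 9.13 in TCD and 7.17, 7.07 and 7.65 in RWV, but its fresh arrays ran from -2.0 to 2.40, and it was not called (-1.93 ± 0.824, adjusted p = 0.21). Egln1, the main oxygen sensor of the family, differed by -1.39 ± 0.388 without a call (adjusted p = 0.0561). Some alternatives called it lower: array weights (-1.61, adjusted p = 0.00909), the mean of its probe sets (-1.23, 0.0243), reference centring (-1.51, 0.0305) and no background filter (0.0210). The HIF count was 4 without TCD replicate 2, 3 without TCD replicate 3 and 2 without any 1 of the other 4 arrays, and the glycolysis count was 2 without RWV replicate 1 or 2 and 4 without any of the others.

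**Figure D2:**
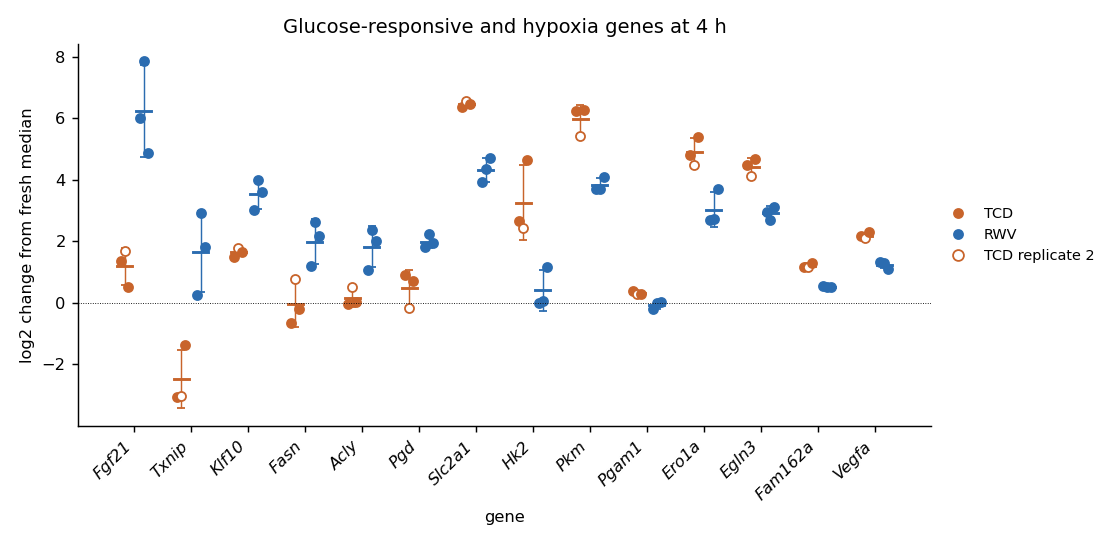
Values of 14 glucose-responsive and hypoxia genes (horizontal) on each of the 3 TCD and 3 RWV arrays at 4 h, as log2 change from the fresh median (vertical); bars are group means, whiskers 1 SD, and open circles mark TCD replicate 2. From Fgf21 to Pgd every RWV value lies above every TCD value, and from Slc2a1 to Vegfa every RWV value lies below every TCD value.

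Promoter stretches of hypoxia and glycolysis genes are shown because the genes that were lower share the short core of the hypoxia response element, ACGTG, searched on both strands. It occurred in 6447 of the 32851 windows (19.6%) and in at least 1 window of 5886 of 27025 genes (21.8%). Of the genes tested with a window, 2897 of 10040 held it (28.9%). Of the 29 glycolysis genes with a window 17 held it, and the 5 called lower were all among them. Of the HIF genes 19 of 26 held it, again with all 5 of those called lower, though only 26 of 33 had a window, too few to set the share beside that of all genes. HIF targets are known in part by this element, so the lists are not independent of it. The stretches lie before the start site in GRCm38.p6, written 5′ to 3′ on the strand of the gene, and capitals mark ACGTG or its reverse complement. Slc2a1 lies at chr4:119108685-119108744 on the plus strand, and the others on the minus strand, Ero1a at chr14:45318596-45318655, Fam162a at chr16:36071603-36071662, Hk2 at chr6:82774641-82774700 and Egln3 at chr12:54204064-54204123.
Slc2a1: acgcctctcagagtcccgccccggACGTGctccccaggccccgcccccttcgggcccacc
Ero1a: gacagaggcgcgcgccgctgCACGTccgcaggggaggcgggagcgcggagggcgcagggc
Fam162a: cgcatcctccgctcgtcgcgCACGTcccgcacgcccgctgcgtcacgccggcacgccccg
Hk2: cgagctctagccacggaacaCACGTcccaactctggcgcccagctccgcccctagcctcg
Egln3: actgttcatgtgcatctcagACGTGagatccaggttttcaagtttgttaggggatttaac

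Serine synthesis and its regulators were higher in aggregates. The integrated stress response, in which the factor Atf4 is translated when amino acids run short, had 37 genes tested, of which 6 were higher (16.2%, against 5.50% of all genes) and 0 lower, with a median of 0.439. All 3 enzymes of the serine pathway were among them. Phgdh, the first enzyme, stood at 6.31, 5.46 and 6.66 in RWV and 4.74, 0.72 and 3.94 in TCD (3.01 ± 0.759, adjusted p = 0.0371). The low value was that of TCD replicate 2, and without it the difference was 1.81 (adjusted p = 0.0167), much as with array weights (1.77) or on the mean of its 4 probe sets (1.84). Psat1, the aminotransferase, had risen strongly in both vessels, to 8.70, 8.43 and 9.05 in RWV and 7.98, 6.97 and 7.98 in TCD (1.08 ± 0.247, adjusted p = 0.0241). Psph, the phosphatase of the last step, differed by 0.84 ± 0.167 (adjusted p = 0.0129). Each of these enzymes lost its call without some RWV array: Phgdh without any 1 of them (adjusted p between 0.0582 and 0.132), Psat1 without replicate 1 or 3 (0.0647 and 0.1) and Psph without replicate 3 (0.0551). Atf5, a relative of Atf4, lay at the fresh level in TCD (-0.02, -0.04 and 0.02) and above it in RWV (1.03, 1.18 and 0.71), a difference of 0.98 ± 0.155 (adjusted p = 0.00391). Cebpg, the binding partner of Atf4, rose by 0.84 ± 0.128 (adjusted p = 0.00332), and the amino acid transporter subunit Slc3a2 by 0.65 ± 0.167 (adjusted p = 0.0407). Slc3a2 lost its call without any 1 array except TCD replicate 3 (adjusted p between 0.0627 and 0.151). Atf4 itself stood at 2.13, 2.15 and 2.03 in RWV and 1.40, 1.59 and 1.42 in TCD without a call (0.63 ± 0.193, adjusted p = 0.0796). Ddit3, the stress factor CHOP, was high in both vessels, at 6.54, 6.73 and 6.67 against 6.31, 6.47 and 6.27 (0.30 ± 0.233, adjusted p = 0.529). On the mean of each gene's probe sets both were called, Atf4 at 0.67 (adjusted p = 0.0282) and Ddit3 at 0.71 (adjusted p = 0.0231). The count of 6 was 3 without RWV replicate 1, 4 without RWV replicate 2 and 2 without RWV replicate 3. The C/EBP-ATF element TGATGNAA, found on either strand in 3.97% of windows, was in 8 of the 33 list genes with a window and in 0 of the 6 called, each of which had a window.

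Some genes for handling RNA in the nucleus were higher in aggregates. Of 63 genes for splicing factors and nuclear speckle proteins 11 were higher (17.5%) and 0 lower, with a median of 0.371, and 54 of the 63 differences were above 0 (85.7%, against 48.5% of all genes). Zfc3h1, a factor that guides nuclear RNA to degradation, stayed at the fresh level in RWV (-0.03, 0.00 and -0.01) and was at -2.76, -3.45 and -4.06 in TCD, a difference of 3.41 ± 0.329 (10.7-fold, adjusted p = 0.000327). Rsrp1, a small arginine- and serine-rich protein, stood at 0.18, -0.59 and 0.22 in RWV and -2.52, -3.85 and -2.50 in TCD, with all 3 of its probe sets called (2.89 ± 0.385, adjusted p = 0.00153). Hnrnpu, an RNA-binding scaffold protein, stood at 2.15, 2.68 and 3.52 in RWV and 0.50, 0.26 and 1.18 in TCD (2.14 ± 0.323, adjusted p = 0.00315), though only 1 of its 5 probe sets was called and their mean differed by 0.69 (adjusted p = 0.00719). Rbm5, a regulator of alternative splicing, had 2 of 5 called (1.85 ± 0.393, adjusted p = 0.0172), and lost its call without RWV replicate 2 or 3 (adjusted p = 0.0517 and 0.0735) and on the mean of its probe sets (0.98, adjusted p = 0.0552), and was at 1.22 with array weights. Without RWV replicate 3 the count of called splicing genes was 6.

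Hosts of small nucleolar RNAs and other nuclear noncoding genes had the same direction, 4 of 26 higher (15.4%) and 0 lower, with a median of 0.509. Gas5, a noncoding transcript whose introns hold small nucleolar RNAs and which accumulates when translation stalls, stood at 1.93, 2.0 and 3.04 in RWV and -1.25, -2.61 and 0.74 in TCD. The TCD arrays of Gas5 spread widely but stayed below every RWV array, and the difference was 3.36 ± 0.626 (adjusted p = 0.00928), or 2.58 without TCD replicate 2 (adjusted p = 0.0191). Of its 4 probe sets 2 were called, and their mean differed by 1.8 (adjusted p = 0.0074). Dancr, another host, stood at 3.33, 4.28 and 3.58 against 1.63, 1.07 and 1.81 (2.22 ± 0.381, adjusted p = 0.00635). Tug1, a long nuclear RNA, was below the fresh median in both vessels, at -0.39, -0.63 and -0.10 in RWV and -2.01, -2.72 and -1.29 in TCD, with 3 of 3 probe sets called (1.63 ± 0.33, adjusted p = 0.0135). It lost the call without RWV replicate 3 (adjusted p = 0.0589). The fresh arrays of Tug1 ran from -0.18 to 0.62, and against fresh cells limma did not call it in RWV (-0.52, adjusted p = 0.279). Snhg4 differed by 1.5 ± 0.356 (adjusted p = 0.0292), and lost its call without any 1 array except TCD replicate 3 (adjusted p between 0.0598 and 0.102). The count of 4 was 7 without TCD replicate 3 and 2 without RWV replicate 3.

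Chromatin enzymes formed another group of this kind, with 12 of 66 higher (18.2%), 1 lower and a median of 0.527. The histone H3 lysine 4 methyltransferases Kmt2a and Kmt2b, which keep active promoters marked, stood at 0.51, -0.04 and 0.47 and at 0.90, 0.54 and 1.6 in RWV. In TCD they stood at -1.16, -2.01 and -0.92 and at -0.75, -1.10 and -0.28, below the fresh median on every array. The differences were 1.67 ± 0.285 (adjusted p = 0.00622) and 1.73 ± 0.281 (adjusted p = 0.0048), with 1 of 2 probe sets called for Kmt2a, whose mean differed by 0.83. The fresh arrays of Kmt2b ran from -0.48 to 0.09, a range that holds its TCD replicate 3 value. Against fresh cells limma did not call Kmt2b in TCD (-0.58, adjusted p = 0.163). Ep300, a histone acetyltransferase and coactivator, stood at -0.25, -0.20 and 0.06 against -1.2, -1.54 and -1.12 (1.16 ± 0.125, adjusted p = 0.000549). Arid4b, a subunit of a deacetylase complex, differed by 1.38 ± 0.364 (adjusted p = 0.044), and was not called without TCD replicate 2 or any 1 RWV array (adjusted p between 0.0645 and 0.16), nor with reference centring (adjusted p = 0.0602). Of its 5 probe sets 1 was called, their mean differed by 0.44, and the difference without TCD replicate 2 was 0.86. The member that fell was Kdm6b, a demethylase that is induced quickly by stress and inflammatory signals, at 1.93, 1.36 and 1.94 in RWV and 3.71, 2.82 and 3.76 in TCD (-1.69 ± 0.357, adjusted p = 0.017, and 0.0662 without RWV replicate 2), with 1 of 3 probe sets called and -0.80 on their mean. The count of 12 was 18 without TCD replicate 3, 7 without RWV replicate 1 and 6 without RWV replicate 3.

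Zinc finger genes named Zfp, most of which encode DNA-binding repressors, made up 65 of the 683 genes called higher. Of the 276 tested 23.6% were higher, against 5.50% of all genes, and 2 were lower, with a median of 0.366. Zfp74 gave the smallest p of all genes named here. It stood at 0.18, 0.16 and 0.15 in RWV and at -2.07, -2.50 and -2.91 in TCD, near the fresh level in aggregates and below it in monolayers (2.66 ± 0.195, 6.30-fold, adjusted p = 7.8e-05). Zfp518b stood at 2.02, 2.15 and 2.09 in RWV and 0.03, -0.44 and -1.09 in TCD (2.58 ± 0.27, adjusted p = 0.000465). Zfp790 had the largest difference of the family, 2.67 ± 0.45 (adjusted p = 0.0058), with a TCD replicate 2 value of -2.56 beside -0.42 and -0.39, and was 1.95 without that array (adjusted p = 0.000953). Zfp760 differed by 2.31 ± 0.289 (adjusted p = 0.00115). The count of 65 was 46 without TCD replicate 2 and 42 without RWV replicate 2, and 45 with reference centring. Zfp467 was one of the 2 that fell (-1.06 ± 0.267, adjusted p = 0.037), but its value on the mean of its probe sets was -0.46 (adjusted p = 0.259) and without probe sets of shared sequence -0.09 (adjusted p = 0.912), and it lost the call without TCD replicate 1 or 2 or RWV replicate 1 or 3 (adjusted p between 0.052 and 0.133).

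**Figure D3:**
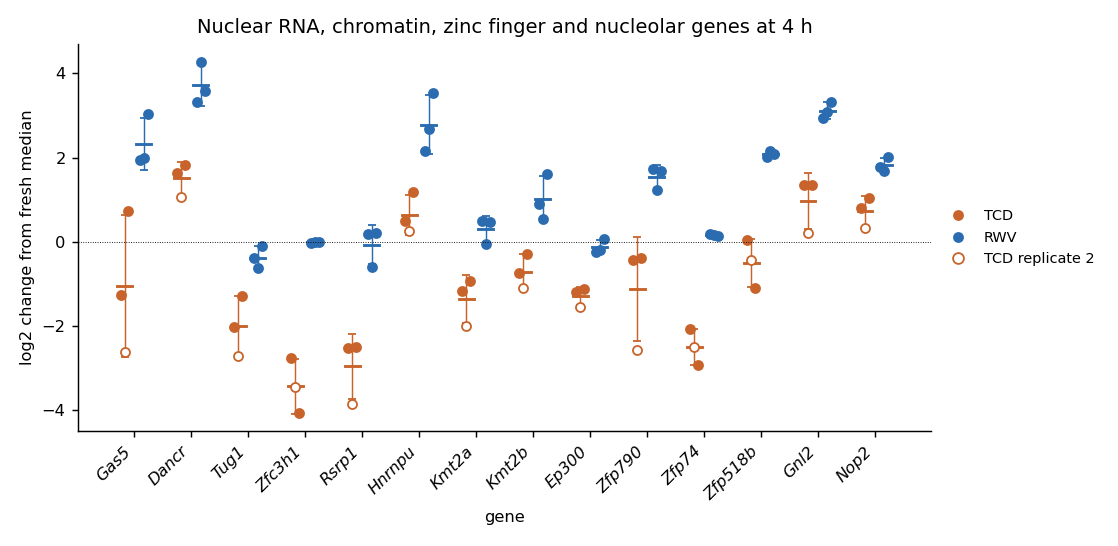
Values of 14 genes of nuclear RNA handling, chromatin, the zinc finger family and the nucleolus (horizontal) on each of the 3 TCD and 3 RWV arrays at 4 h, as log2 change from the fresh median (vertical); bars are group means, whiskers 1 SD, and open circles mark TCD replicate 2. For each of these genes every RWV value lies above every TCD value, and TCD replicate 2 is the lowest TCD value in most of them.

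Some genes of the nucleolus, where ribosomes are made, were higher too. Of 58 ribosome biogenesis genes 7 were higher (12.1%) and 0 lower, with a median of 0.410. For 29 of the 58 all 3 RWV values lay above all 3 TCD values (50%, against 14.5% of all genes), and for none did they lie below, against 18.7%. Gnl2, a nucleolar GTPase, stood at 2.93, 3.07 and 3.33 in RWV and 1.34, 0.21 and 1.35 in TCD (2.14 ± 0.348, adjusted p = 0.00474), with 1 of 3 probe sets called and 0.92 on their mean. Nop2, a methyltransferase of ribosomal RNA, stood at 1.77, 1.67 and 2.0 against 0.81, 0.34 and 1.05 (1.08 ± 0.196, adjusted p = 0.00826). Tsr1, which matures the small subunit, differed by 0.88 ± 0.142 (adjusted p = 0.00449), and Nop56, a core protein of the small nucleolar ribonucleoproteins, by 0.97 ± 0.238 (adjusted p = 0.0331). Nop56 was not called without TCD replicate 2 or any 1 RWV array (adjusted p between 0.0838 and 0.116). The count of 7 was 4 without TCD replicate 2, 4 without RWV replicate 1 or 3, 13 without TCD replicate 3 and 3 with reference centring, under which the median stayed above 0 at 0.282. Taf1d, a subunit of the factor that starts ribosomal RNA transcription and itself a host of small nucleolar RNAs, was among the 15 largest rises of all genes (2.90 ± 0.48, adjusted p = 0.00521), but only 1 of its 7 probe sets was called, and their mean differed by 0.49 (adjusted p = 0.124).

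**Figure D4:**
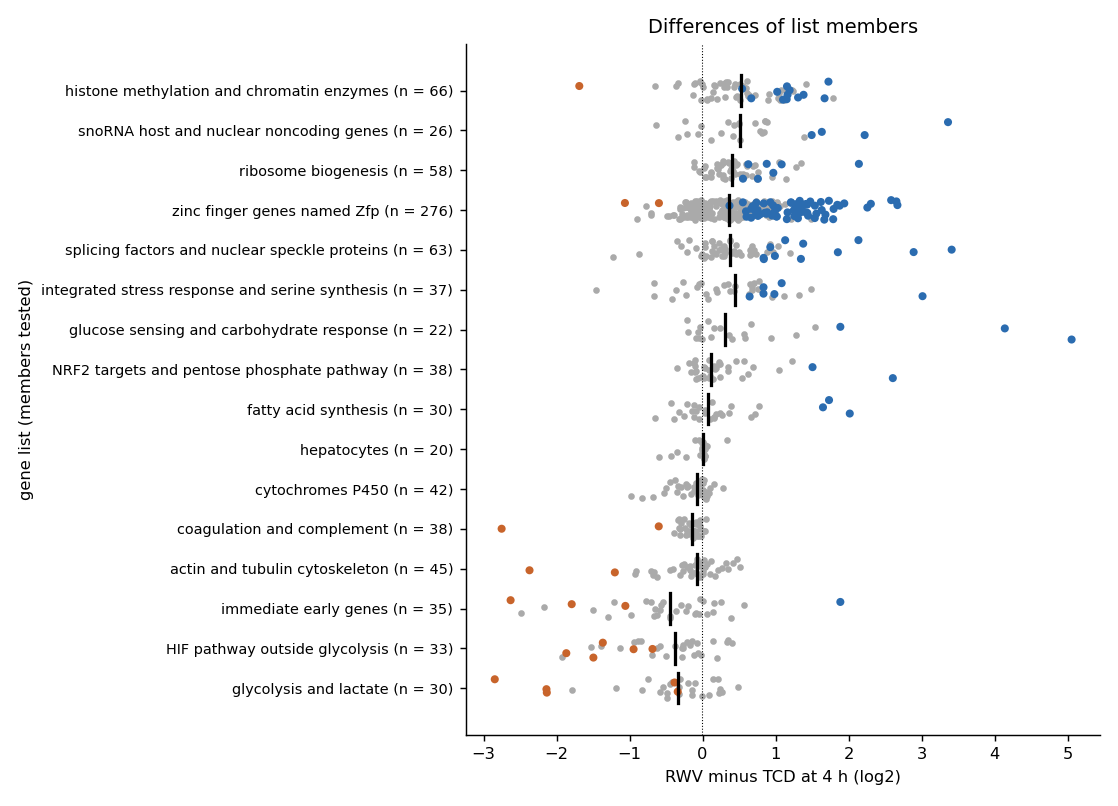
Difference between RWV and TCD at 4 h (horizontal, log2) of every tested member of 16 gene lists (vertical, with the number tested); blue and orange points were called higher and lower, grey points were not called, black bars are list medians and the dotted line is the median of all genes tested. The medians of the glycolysis, HIF and immediate early lists lie at -0.333, -0.371 and -0.447, and those of the chromatin and snoRNA host lists at 0.527 and 0.509.

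Signals of growth, injury and spreading were lower in aggregates in a few genes. Immediate early genes had 3 of 35 lower (8.57%, against 0.668% of all genes tested) and 1 higher (2.86%, against 5.50%), with a median of -0.447. With the replicate block (under which 6.14% of all genes tested were higher and 0.781% lower) or without TCD replicate 1, 5 were lower. The member that rose was Klf10, given above. Fos, the AP-1 subunit, had fallen below the fresh level in both vessels, to -3.34, -3.57 and -3.58 in RWV and -1.81, -1.99 and -1.31 in TCD (-1.79 ± 0.318, adjusted p = 0.00747). Btg2, an antiproliferative gene induced by p53 and by growth signals, stood at -1.32, -1.08 and 0.03 in RWV and 1.32, 2.20 and 2.01 in TCD, with both probe sets called (-2.63 ± 0.331, adjusted p = 0.00115). Csrnp1 differed by -1.06 ± 0.237 (adjusted p = 0.0225), and lost its call without TCD replicate 3 or RWV replicate 2 or 3 (adjusted p between 0.0544 and 0.0817). Hbegf, a ligand of the EGF receptor, had risen in both vessels and less so in RWV, at 4.05, 4.41 and 4.90 against 6.01, 6.09 and 6.87 (-1.88 ± 0.297, adjusted p = 0.00404). Rgs2, a brake on G protein signalling, stayed at the fresh level in RWV (-0.13, -0.03 and -0.04) and stood at 2.32, 1.90 and 2.20 in TCD (-2.21 ± 0.348, adjusted p = 0.00391), with 1 of 3 probe sets called and no call without the probe sets of shared sequence (-1.58, adjusted p = 0.0534). Dusp4, a phosphatase that limits MAP kinases, was the 1 called member of its list of 26, its groups close together at 1.72, 2.65 and 2.75 in RWV against 1.65, 1.65 and 1.42. Its call (0.80 ± 0.213, adjusted p = 0.0464) was lost with the replicate block (0.0617), with reference centring (0.133) and in every fit that left out an array except RWV replicate 1 (adjusted p between 0.0678 and 0.18). The AP-1 element TGANTCA, in 7.81% of windows, was in 2 of the 27 immediate early genes with a window.

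Genes of the cytoskeleton and of cell spreading held some of the largest falls and few calls. Ackr3, the 1 called member of 34 NF-kB and chemokine genes, stood at 1.77, 1.94 and 1.64 in RWV and 4.97, 4.54 and 5.76 in TCD, the largest fall of all genes (-3.30 ± 0.315, 9.88-fold, adjusted p = 0.000327). Ackr3 had 1 probe set, of the kind with shared sequence, so it could not be tested without such probe sets. Vim stood at 1.74, 0.45 and 1.90 in RWV and 5.19, 2.55 and 4.42 in TCD (-2.69 ± 0.571, adjusted p = 0.0174), with 2 of 3 probe sets called. In TCD replicate 2 it was lower than in the other TCD arrays, and the difference without that array was -3.44 (adjusted p = 0.00243). Without RWV replicate 2 Vim was not called (adjusted p = 0.0662). Tmsb10, a thymosin that binds actin monomers, had risen to 7.98, 7.09 and 8.09 in RWV and 10.46, 9.61 and 10.20 in TCD (-2.37 ± 0.337, adjusted p = 0.00236), with 3 of 5 probe sets called. Without probe sets of shared sequence its difference was -0.17 (adjusted p = 0.383), so the copy of this family that was measured is uncertain. Lcp1, an actin-bundling plastin, differed by -1.2 ± 0.153 (adjusted p = 0.00124). These were the only called members among 45 actin and tubulin genes and 24 intermediate filament, annexin and S100 genes, and Actb, beta-actin, was at 0.80, 0.80 and 0.80 in TCD and 0.73, 0.92 and 0.76 in RWV. Of 28 YAP and SRF targets 2 were lower (7.14%, against 0.668% of all genes tested). F3 stood at 1.51, 1.86 and 3.23 against 5.01, 4.29 and 5.55 (-2.75 ± 0.556, adjusted p = 0.0135; adjusted p = 0.0528 and 0.0549 without RWV replicate 1 or 2), and Fhl2, a LIM-domain adaptor, at 1.16, 1.21 and 1.38 against 2.37, 2.50 and 3.56 (-1.56 ± 0.307, adjusted p = 0.0119). Of 30 integrin and focal adhesion genes limma called 0, with 5 at an unadjusted p below 0.05 (against 2501 of all 12423 genes tested). In the matrix and TGF-beta list 2 of 32 were higher (6.25%, close to the 5.50% of all genes), the receptor Tgfbr1 (0.86 ± 0.211, adjusted p = 0.0331) and its mediator Smad3 (0.85 ± 0.191, adjusted p = 0.0231). Neither was called with reference centring (adjusted p = 0.0777 and 0.06), and each lost its call in 4 of the 6 fits that left out an array (TCD replicate 2 or any 1 RWV array for Tgfbr1, TCD replicate 1 or 3 or RWV replicate 2 or 3 for Smad3; adjusted p between 0.0522 and 0.129). On the mean of 3 probe sets each, of which 1 was called, Tgfbr1 differed by 0.24 (adjusted p = 0.126) and Smad3 by 0.37. Tgfbr1 was at 0.57 without TCD replicate 2. On the mean of its 5 probe sets Tmsb10 differed by -1.39.

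Few genes of liver functions were called, and with 3 arrays a group the absence of a call does not show equal levels. Hnf4a, the master regulator of the hepatocyte, stood at 0.25, 0.06 and 0.80 in RWV and -0.02, -0.13 and 0.24 in TCD (0.34 ± 0.228, adjusted p = 0.446). Cebpa stood at -0.66, -1.12 and -0.65 against -1.52, -1.47 and -1.09 (0.55 ± 0.176, adjusted p = 0.0969). It was called higher with array weights (0.67, adjusted p = 0.0227) and without the background filter (adjusted p = 0.0292). Foxa2, a forkhead factor that opens liver chromatin, was the called rise among 38 hepatocyte transcription factors. It had fallen from the fresh level in both vessels, to -1.19, -1.26 and -1.31 in RWV and further, to -3.31, -2.67 and -2.62, in TCD (1.61 ± 0.265, adjusted p = 0.00493). Nr3c1, the glucocorticoid receptor, was called lower (-0.94 ± 0.254, adjusted p = 0.0489), but its groups touched, with RWV values of 0.73, 0.51 and 0.94 beside a TCD replicate 2 value of 0.94. Only 1 of its 6 probe sets was called, their mean differed by -0.41, and the call was lost in every fit that left out an array other than TCD replicate 2 (adjusted p between 0.082 and 0.148). Alb (0.03 ± 0.075, adjusted p = 0.874), the P450 Cyp3a11 (-0.00 ± 0.11, adjusted p = 0.988) and Cyp7a1, the rate-limiting enzyme of bile acid synthesis (-0.83 ± 0.505, adjusted p = 0.392), were not called. Nor did limma call any of the 42 P450 genes (1 at an unadjusted p below 0.05, against 2501 of all 12423 genes tested), the 35 genes of gluconeogenesis and glycogen (8), the 44 of fatty acid oxidation (2) or the 28 of apolipoproteins and plasma proteins (1). The smallest p in these lists belonged to Cyp4v3 (adjusted p = 0.111), Pgm1 (0.0516), Plin2 (0.0687, called with the replicate block at 0.0106) and Apob (0.115, called with the replicate block at 0.0496). Pgm1 was called lower with array weights (adjusted p = 0.0230) and with reference centring (0.0265). Plin2 was called higher with array weights (0.0310), and Apob lower with reference centring (0.0436). Without the background filter each of these genes was called (adjusted p between 0.0116 and 0.0326). With the replicate block the P450 Cyp2c38 was lower (-0.44, adjusted p = 0.0205 against 0.779 without it), and Ppp1r3c, which promotes glycogen storage, was higher (0.95, adjusted p = 0.0448 against 0.449). Irs1, the insulin receptor substrate, was far below the fresh level in both vessels, at -2.50, -1.83 and -2.74 in RWV and -4.59, -6.90 and -4.41 in TCD (2.94 ± 0.578, adjusted p = 0.0119). Inhbe, a liver hormone subunit, differed by 2.61 ± 0.615 (adjusted p = 0.0278), with a TCD replicate 2 value of -5.73 beside -2.96 and -2.94, was at 1.69 without that array, and lost its call without any 1 RWV array (adjusted p between 0.0509 and 0.11). Tha1, a threonine aldolase, stood at 0.45, 0.68 and 0.39 against -1.01, -1.11 and -0.91 (1.52 ± 0.2, adjusted p = 0.00148), the only called gene among 44 of the urea cycle and amino acid breakdown.

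Other large differences fell outside these groups. Hspa1b, an inducible Hsp70 chaperone, was higher in RWV, at 1.35, -0.37 and 0.73 against -2.01, -4.17 and -1.34, with 3 of 3 probe sets called (3.08 ± 0.775, adjusted p = 0.0371). It was not called without TCD replicate 2 or RWV replicate 1 or 3 (adjusted p between 0.115 and 0.128). Its cochaperone Bag2 went the other way, at 0.95, 0.86 and 1.61 against 3.37, 2.95 and 3.15 (-2.02 ± 0.258, adjusted p = 0.00124), and each was the only member of the 31 heat shock genes called in its direction. Mycl, a relative of Myc, stood at 0.14, 0.89 and 0.99 in RWV and -1.53, -2.01 and -1.43 in TCD (2.33 ± 0.274, adjusted p = 0.000847), with 1 of 3 probe sets called and 0.84 on their mean. Pim1 and Pim3, kinases induced through Stat factors, were lower, at -1.6 ± 0.303 (adjusted p = 0.0101) and -1.5 ± 0.384 (adjusted p = 0.0398); Pim3 lost its call without TCD replicate 1 or 3 or RWV replicate 2 or 3 (adjusted p between 0.0802 and 0.12). Abca1, which exports cholesterol, was lower in RWV (-1.56 ± 0.373, adjusted p = 0.0299), and Slc40a1, the iron exporter ferroportin, was higher (1.70 ± 0.445, adjusted p = 0.0427). Abca1 had 1 of 3 probe sets called, differed by -0.77 on their mean and lost its call without TCD replicate 1 or 2 or RWV replicate 1 or 3 (adjusted p between 0.051 and 0.112), and Slc40a1 without any 1 array except TCD replicate 3 (adjusted p between 0.0957 and 0.141). Mtf1, the metal-sensing transcription factor, held at 0.10, 0.10 and 0.08 in RWV and stood at -0.66, -0.68 and -1.2 in TCD (0.94 ± 0.17, adjusted p = 0.00799), with 1 of 4 probe sets called and 0.36 on their mean. Ccnf, a cyclin-like F-box protein, was among the 15 largest rises, at -0.76, 0.37 and -2.49 against -4.04, -4.06 and -5.83 (3.69 ± 0.885, adjusted p = 0.0301). It lost its call without TCD replicate 2 or 3 or RWV replicate 1 or 2 (adjusted p between 0.0568 and 0.107). Samd4 (3.26 ± 0.362, adjusted p = 0.000561), Tmem43 (3.19 ± 0.453, adjusted p = 0.00236), Wipf3 (3.10 ± 0.525, adjusted p = 0.00595) and the transcripts 2310034O05Rik (3.43 ± 0.375, adjusted p = 0.00056) and A630072M18Rik (2.88 ± 0.369, adjusted p = 0.00126) were called also without each of the 6 arrays in turn, though only 1 of 4 probe sets of Samd4 was, and their mean differed by 1.12. Samd4, Tmem43, Wipf3 and 2310034O05Rik lost their calls when the 6 compared arrays were fitted alone. Among the 15 largest falls were Herc4 (-2.40 ± 0.36, adjusted p = 0.00301), Srrm4 (-1.90 ± 0.357, adjusted p = 0.00974) and Rasgef1b (-1.91 ± 0.415, adjusted p = 0.0197), with -1.02 for Herc4 and -0.78 for Srrm4 on the mean of their probe sets. Rasgef1b lost its call without TCD replicate 2 or RWV replicate 2 or 3 (adjusted p between 0.0669 and 0.0726).

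Markers of other liver cells were measured beside these results, since a preparation of hepatocytes can hold some. In RNA from many cells, fewer cells of a type and less of its RNA per cell cannot be told apart. Of 18 Kupffer cell and macrophage markers, 10 of stellate cells and fibroblasts, 14 of endothelial cells, 7 of cholangiocytes, 4 of lymphocytes, 3 of neutrophils and 6 of erythroid cells and platelets, limma called 0, with 2 of these 62 at an unadjusted p below 0.05 (against 2501 of all 12423 genes tested). The medians of the Kupffer list ran from 0.00745 to 0.35 on the TCD arrays and from -0.156 to -0.0307 on the RWV arrays, and 16 of its 18 differences lay below 0. Those of the endothelial list ran from -0.0805 to 0.0257 and from -0.221 to -0.0754. Those of the stellate cell and fibroblast list ran from 0.0419 to 0.112 and from -0.0772 to -0.0183 without overlap, and 60% of its 10 genes had all RWV values below all TCD values, against 18.7% of all genes. This share was not particular to that list. It was 57.1% for cholangiocytes, 66.7% for neutrophils and for erythroid cells and platelets, 35.7% for endothelial cells, 25% for lymphocytes and 22.2% for the Kupffer list. The cholangiocyte medians ran from 0.0183 to 0.0637 and from -0.0711 to -0.00974, and those of neutrophils from 0.00581 to 0.199 and from -0.0847 to -0.0378. Those of lymphocytes ran from 0.113 to 0.337 and from -0.0318 to 0.109, and those of erythroid cells and platelets from -0.0707 to 0.0145 and from -0.118 to -0.0728. Lcp1 and Vim are also expressed by such cells, and the part of those cells in their differences was not tested. The background profile of the arrays ran from 0.0188 to 0.066 in TCD and from -0.0649 to -0.0169 in RWV. Whether these shifts bear on the differences was not tested. For Actb, the control transcript probed at both ends, the 3′ value minus the 5′ value, a reading of RNA integrity, was -0.228 to -0.195 in TCD and -0.299 to -0.203 in RWV.

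Few of the genes higher at 4 h were called higher at 24 h, and a larger share of the lower genes was called lower again. The arrays at 24 h are separate from those at 4 h. Of the 683 genes higher in RWV at 4 h, 56 were higher at 24 h (8.20%, against 8.36% of all genes tested) and 45 were lower (6.59%, against 6.86%). Their median level at 24 h was 0.728 in TCD and 0.732 in RWV. The difference at 24 h differed from that at 4 h by the interaction test for 386 of them (56.5%, against 12.7% of all genes, 4.93% upward and 7.73% downward). These genes were chosen by their 4 h difference, which the interaction uses, so nothing is read from that share. Of the 83 lower genes 29 were lower at 24 h too (34.9%, against 6.86%) and 9 were higher (10.8%). Fgf21 ranked 2 among the differences in favour of RWV at 24 h, with 5.58, 6.76 and 5.17 in RWV and 0.20, -0.03 and -0.05 in TCD at 24 h (5.8 ± 0.611, adjusted p = 6.57e-05). Txnip went from above the fresh median in RWV to -3.07, -3.59 and -2.72, beside -1.77, -2.87 and -2.04 in TCD. Its 24 h difference of -0.90 ± 0.753 was not called (adjusted p = 0.531, with an interaction adjusted p of 0.0102). Of the 10 hypoxia and glycolysis genes called at 4 h, 9 were lower at 24 h as well, with Hk2 at -3.65, Ero1a at -2.05, Egln3 at -1.86 and Pkm at -1.49, and Slc2a1 was at -1.13 (adjusted p = 0.0713). Fos reversed, from -1.79 to 1.2 ± 0.318 at 24 h (adjusted p = 0.0246; interaction adjusted p = 0.00171). Zfp74, Zfc3h1 and Kmt2a were at 0.26, -0.26 and -0.49 at 24 h, none of them called. Hnf4a and Cebpa, uncalled at 4 h, were higher in RWV at 24 h, both by 1.37 (adjusted p = 0.0015 and 0.000276), and their interaction adjusted p of 0.0557 and 0.0502 did not pass the threshold.

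**Figure D5:**
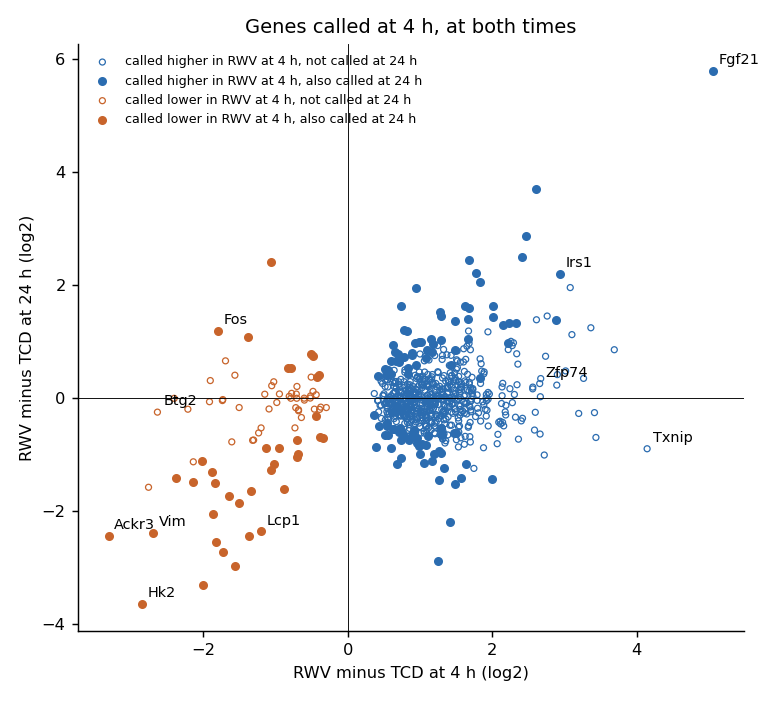
Difference between RWV and TCD at 4 h (horizontal) and at 24 h (vertical), both log2, for the 766 genes called at 4 h; filled points were also called at 24 h. The cloud of 683 rises lies around 0 on the 24 h axis, with 56 called higher and 45 called lower there, while 29 of the 83 falls were called lower again.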

How the data were processed

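RNA of 15 samples had been extracted with RNeasy kits, labelled with biotin and hybridised to Affymetrix mouse arrays with 45101 probe sets. The deposited values are log2 signals made with GCRMA, per the submitters' processing notes; which release of GCRMA is not stated in those notes. The 3 fresh arrays have a median of 0 in every probe set (tolerance 1e-06): the authors had subtracted that median, and no intensity level is known; the base 2 was taken from GCRMA's scale. The number of arrays limits the precision.

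Probe sets with 1 symbol (34945, of which 34754 matched a current gene by Entrez number) were used; 64 controls, 932 with several symbols and 9160 with none were left out. Probe sets that followed the median profile of the 20% least variable (correlation above 0.8, SD below 0.5) counted as background, and a gene was represented by whichever of its other probe sets had the largest SD. Group means of all 15 arrays were fitted with limma 3.58.1 in R 4.3.3 (data.table version 1.17.8), with 10 residual degrees of freedom and Benjamini-Hochberg adjustment; the script was tested on simulated data. The members and gene lists were chosen with earlier results of these data known. Named genes were the 15 largest called differences each way without overlap, up to 4 called members of each list (or that of smallest p), and 7 fixed genes; Fam162a, Pgk1, Cebpg, Slc3a2, Ep300, Adm, Egln1, Atf4, Ddit3, Zfp467, Cyp2c38 and Ppp1r3c were added after their values were seen.

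The labels give each replicate number in every group without saying what it marks. Deviations from the group means at 4 h correlated at 0.368, 0.493 and 0.522 between arrays of 1 number, and between -0.412 and -0.0696 otherwise. Deviations cancel within a group, so the negative values are no separate evidence of pairs. Whether the numbers mark pairs is not known, and the replicate block was run as an alternative. Alternatives also covered the filter, the probe set rule, array weights, centring and each array left out. Promoter windows were those of RefSeq (GRCm38.p6).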

Additional observations from a re-analysis of the deposited data

Results flagged for a closer look

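The difference between vessels changed from 4 h to 24 h, by limma's interaction term at an adjusted p below 0.05, for the named genes below. Each value is the 24 h difference minus the 4 h difference, both RWV minus TCD on the log2 scale, with n = 3 per group, and most of these genes were chosen for a large difference at 4 h, which the subtraction uses. Below, moving up or down refers to this difference and not to the level of a gene. Zfc3h1, for one, rose in level from 4 h to 24 h in both vessels. It went from -2.76, -3.45 and -4.06 to 0.88, 0.98 and 1.24 in TCD. In RWV it went from -0.03, 0.00 and -0.01 to 0.45, 0.85 and 1.03.

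The difference between vessels moved down for genes of nuclear RNA and noncoding RNA: Zfc3h1 by -3.67, Tug1 by -2.80, Rsrp1 by -2.66 and Hnrnpu by -2.10. So did that of the zinc finger genes Zfp518b (-3.15), Zfp74 (-2.40), Zfp790 (-2.33) and Zfp760 (-2.24), while that of Zfp467, which was lower at 4 h, moved up by 3.48. The chromatin genes Kmt2a (-2.16), Kmt2b (-1.65) and Ep300 (-1.43) moved down and Kdm6b moved up by 2.35. The nucleolar genes Taf1d (-2.48), Tsr1 (-1.58), Nop2 (-1.44) and Nop56 (-1.33) moved down.

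Txnip gave the largest change, -5.04. Of the stress response genes, Psat1 moved by -1.58, Atf4 by -1.03, Slc3a2 by -0.789 and Cebpg by -0.756. Genes lower in RWV at 4 h moved up, with Fos at 2.99, Herc4 at 2.39, Btg2 at 2.38, Srrm4 at 2.21, Rgs2 at 2.01, Abca1 at 1.96, Cldn14, a claudin, at 1.35, Trib1, a pseudokinase, at 0.905 and Idh3g, a subunit of isocitrate dehydrogenase, at 0.807. Lcp1 moved further down, by -1.16. Apob, which was not called at 4 h, moved up by 1.34, and Ern1, a sensor of unfolded proteins, by 0.901.

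Among the other genes higher at 4 h, 2310034O05Rik moved by -4.13, Tmem43 by -3.47, Samd4 by -2.91, Tgfbr1 by -1.53, Polk, a DNA polymerase, by -1.36, Mtf1 by -1.22, Aen, a nuclease induced by p53, by -1.03 and Tha1 by -0.978.

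Probe sets outside the main measurement also differed. Of 3333 with no symbol or several symbols off the background, 103 passed at 4 h (3.09%), of which 81 were higher in aggregates and 22 in monolayers.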

How the results depend on the processing

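No named called gene changed sign under the alternatives run, but the balance of all calls did: without the background filter most were lower in RWV. The cause of the changes that follow was not tested. Against 766 genes called, 458 of them at least 2-fold, and 1573 for the interaction, omitting the background filter gave 6928 (19.2% higher) and 3147. The 6 arrays alone gave 109 (86 of 12423 higher and 23 lower) and 84 at least 2-fold, and 21 of the 91 named called genes kept their call. The counts higher there were 0 of 37 for the integrated stress response, 0 of 22 for glucose sensing and 1 of 66 for chromatin. They were 2 of 63 for splicing and 1 of 58 for ribosome biogenesis. The counts lower there were 5 of 33 for the HIF list and 2 of 30 for glycolysis. Array weights gave 1287 and 2760 for the interaction, and reference centring 4088 for the interaction. Leaving out each array in turn gave 390 to 994 called, 272 to 589 at least 2-fold and 1154 to 1667 for the interaction; the calls were 506 without TCD replicate 2, 497, 458 and 390 without RWV replicates 1, 2 and 3, and those at least 2-fold 295 without TCD replicate 2 and 272 without RWV replicate 3. The replicate block over 15 arrays gave 860 calls, 714 of them among the 766. Among named genes it ended the calls of Dusp4, Thbd and Pgk1, began those of Plin2, Apob, Cyp2c38 and Ppp1r3c, and changed no other. With the replicate block over the 6 arrays alone limma called 0 genes, 0 of them at least 2-fold, with 2553 at an unadjusted p below 0.05. Averaging the probe sets of a gene gave 822 calls (623 shared), and every probe set by itself, an alternative chosen after seeing the data like the counts of list members without each array, gave 1191 of 22096. With 3 arrays a group, an exact permutation test of 1 gene cannot give a p below 0.1.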

Other observations

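Several liver lists leaned below 0 with few or no calls. Of 38 coagulation and complement genes 35 were lower in RWV by value (92.1%), and of 44 genes of the urea cycle and amino acid breakdown 39 were (88.6%), against 51.5% of all genes tested. In the first list F3 and Thbd, the anticoagulant receptor thrombomodulin, were called lower. The groups of Thbd overlapped, and it lost its call with the replicate block (adjusted p = 0.0512) and without TCD replicate 1 or 3 or RWV replicate 1 or 2 (adjusted p between 0.0926 and 0.161). In the second list only Tha1 was called, in the other direction. The median difference of the coagulation list was -0.15, and that of the 10 reference genes 0.137.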
